A study of Mus musculus with 6 samples.

Results

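The genes described here are 10 genes of monocytes and macrophages, the phagocytes that engulf particles and dying cells: Csf1r, Adgre1, Mrc1, Clec7a, Fcgr1, Ms4a6c, Lyz2, Cd68, Ctss and Mpeg1. They were chosen by name as markers and effectors of these cells, with earlier results of these data known. Every probe set annotated to one of them was taken on all 6 arrays. Each gene had 1 probe set, so that 10 of the 28815 probe sets of the array belong to the list. The study compared RNA of hematopoietic stem cells (HSC), which give rise to all blood lineages in the marrow, between mice that lack Selp (Selp-/-), the gene for P-selectin, and wild-type (WT) mice. P-selectin is an adhesion molecule of platelets and vessel walls that white blood cells bind. Selp-/- and WT had 3 arrays each, numbered 1 to 3 within the genotype by the labels, and both genotypes are given as C57BL/6. No treatment, age or sex is given, nor what an array number stands for, how the HSC were sorted, or whether each array stands for a mouse of its own. The p-values therefore rest on a spread between arrays that may be purely technical.

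Monocytes arise in the bone marrow from HSC by way of committed progenitors, and many tissue macrophages are replaced from them. Both need signalling through CSF1R, the receptor for colony-stimulating factor 1 and for the product of Il34, and their gene programme depends on the transcription factor PU.1 (Spi1). Receptors such as FCGR1, MRC1 and CLEC7A bind antibody, sugars and fungal cell walls and bring particles into phagosomes, where lysozyme and cathepsins digest them. Transcripts of Lyz2 and Csf1r are also found at low levels in some progenitors, so that the genes are markers of a lineage and not of a single cell type.

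Levels are given as log2 of the background-corrected, quantile-normalized intensity, and differences are on the same scale, where 1 is 2-fold. The correction adds an offset of 50, which understates the folds of dim probe sets, and levels of different probe sets are not set against each other. The median intensity was 638 to 713 on the Selp-/- arrays and 563 to 751 on the WT arrays. No probe set carried the name Selp, so the deleted gene was not analysed here. The arrays numbered 3 stand apart from the others in both genotypes, and they go against the HSC label. Whether the other 4 hold HSC alone was not tested. On those 4, Mpo, listed as a neutrophil marker, measured 12.93 to 14.02. Ngp, of the same list, measured 12.32 on Selp-/- 1 and 12.57 on WT 1, against 9.76 on Selp-/- 2 and 9.13 on WT 2. The 8 genes listed as HSC markers that had a probe set were Hlf, Mecom, Procr, Meis1, Kit, Slamf1, Cd34 and Flt3. Their mean level was 9.64 on Selp-/- 3 and 9.71 on WT 3, against 11.25 and 11.70 on Selp-/- 1 and Selp-/- 2 and 11.39 and 11.51 on WT 1 and WT 2. The 7 basophil and mast cell markers that passed the filter on low levels had mean levels of 12.12 on Selp-/- 3 and 12.59 on WT 3, against 9.53 to 9.83 on the other arrays. Among them, Fcer1a and Tpsb2 lay below the filter level of 8.79 on every array numbered 1 or 2. These 2 passed only through the arrays numbered 3. The B cell gene Cd79a and the T cell gene Cd3e did not pass the test of number 3 against the others. Of the 6 B cell markers that passed the filter, however, 2 were called lower and 0 higher, with a median of -0.45. Of 4 such T and NK cell markers, 1 was called higher and 0 lower. Of all tested probe sets, 11.7% were called lower and 9.13% higher in that fit. In a bulk sample, fewer cells of a type and less RNA per cell cannot be told apart. Xist, the RNA of the inactive X chromosome, had an intensity of 398 on Selp-/- 3, against 5010 on WT 3 and 7764 to 10757 on the other arrays. The Y chromosome genes Eif2s3y, Kdm5d and Uty were highest on Selp-/- 3, with intensities of 952.5, 739.5 and 637.5. By intensity they were next highest on WT 3, with 597.5, 578.5 and 542. In normalized log2 level Eif2s3y was higher on WT 1, at 8.82, than on WT 3, at 8.68. Kdm5d was about equal on WT 1 and WT 3, at 8.61 and 8.62, and Uty was higher on WT 3, at 8.28 and 8.50. Whether the arrays differ in the sex of the mice was not tested. The part of these differences in the results below was not tested.

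Of the 10 genes, 8 were higher on both arrays numbered 3 than on the other 4, as were 20.1% of tested probe sets, and Fcgr1 and Mpeg1 were so on Selp-/- 3 alone. On Selp-/- 3, 8 were higher than on WT 3, as were 50.1% of tested probe sets. Their mean level was 11.91 on Selp-/- 3 and 11.07 on WT 3, against 9.69 and 9.84 on Selp-/- 1 and Selp-/- 2 and 9.58 and 9.84 on WT 1 and WT 2. In a fit of array number 3 against the mean of numbers 1 and 2, with genotype as a second term, 9 of the 10 passed an adjusted p of 0.05 upwards and 0 downwards (limma, Benjamini-Hochberg over 17289 probe sets, with Fcgr1 as the exception). Over all tested probe sets 9.13% were called higher and 11.7% lower. The genes and this comparison were chosen with earlier results known, so the counts and p-values by number are a description and no independent test. For 4 genes, Adgre1, Mrc1, Clec7a and Fcgr1, the mean of the arrays numbered 1 and 2 lay below the level of 8.79 that a probe set's mean over all arrays had to reach, so that they were tested only through the arrays numbered 3. The files give no detection call, so whether these 4 stood above background on the arrays numbered 1 and 2 is not known. No fold between numbers is given for them, and their differences in log2 level below are not to be read as folds. With no such filter 8 of 10 were called higher, without Fcgr1 and Mpeg1, against 5.13% of 28815 probe sets.

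**Figure D1:**
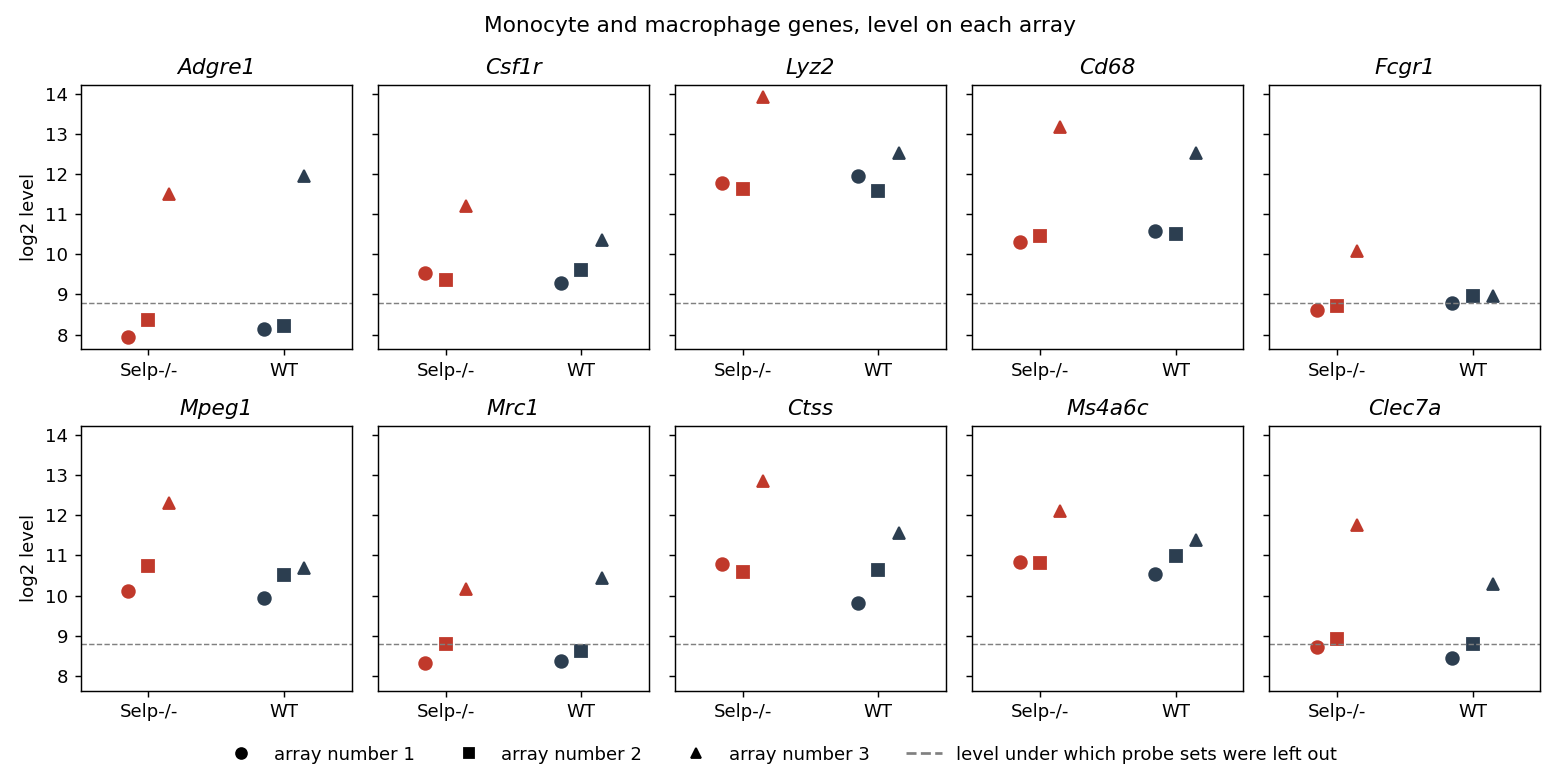
Log2 level of each of the 10 genes on each array, with a point per array, grouped and coloured by genotype and shaped by array number, and the filter level of 8.79 as a dashed line. The 2 arrays numbered 3 lie above the other 4 for 8 genes, while for Fcgr1 and Mpeg1 WT 3 falls within the range of the arrays numbered 1 and 2.

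For 4 of the genes, the promoter stretch from 250 bases before to 50 bases after the gene start is shown as RefSeq gives it on the build GRCm38.p6, 5′ to 3′ on the gene's own strand. Cd68 and Clec7a had the largest differences after Adgre1 in the comparison of numbers, Mrc1 was not higher on Selp-/- 3 than on WT 3, and Ctss holds the longer of the PU.1 forms searched. Capitals mark the letters GAGGAA, the core bound by PU.1, on either strand (TTCCTC on the other), the longer GAGGAAGT, which includes it, and TTGCNNAA, a form bound by C/EBP factors.
Cd68 (chr11:69666121-69666420, minus strand): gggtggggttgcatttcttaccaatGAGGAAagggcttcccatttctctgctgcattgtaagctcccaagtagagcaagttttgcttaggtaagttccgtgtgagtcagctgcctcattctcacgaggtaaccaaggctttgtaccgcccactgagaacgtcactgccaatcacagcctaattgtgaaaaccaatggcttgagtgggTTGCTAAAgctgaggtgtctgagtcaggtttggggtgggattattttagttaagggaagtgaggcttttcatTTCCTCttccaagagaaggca
Ctss (chr3:95526536-95526835, plus strand): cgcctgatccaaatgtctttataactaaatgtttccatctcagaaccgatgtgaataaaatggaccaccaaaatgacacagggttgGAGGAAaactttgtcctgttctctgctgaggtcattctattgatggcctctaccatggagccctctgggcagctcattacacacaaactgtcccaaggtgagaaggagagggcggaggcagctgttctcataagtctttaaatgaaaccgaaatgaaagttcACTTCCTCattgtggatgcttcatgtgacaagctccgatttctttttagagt
Clec7a (chr6:129472730-129473029, minus strand): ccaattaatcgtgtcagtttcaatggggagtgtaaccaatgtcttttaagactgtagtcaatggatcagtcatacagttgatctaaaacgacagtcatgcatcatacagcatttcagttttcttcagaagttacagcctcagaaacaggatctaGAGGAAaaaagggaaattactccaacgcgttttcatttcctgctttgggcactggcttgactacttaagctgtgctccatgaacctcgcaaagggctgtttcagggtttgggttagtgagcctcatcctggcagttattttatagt
Mrc1 (chr2:14229164-14229463, plus strand): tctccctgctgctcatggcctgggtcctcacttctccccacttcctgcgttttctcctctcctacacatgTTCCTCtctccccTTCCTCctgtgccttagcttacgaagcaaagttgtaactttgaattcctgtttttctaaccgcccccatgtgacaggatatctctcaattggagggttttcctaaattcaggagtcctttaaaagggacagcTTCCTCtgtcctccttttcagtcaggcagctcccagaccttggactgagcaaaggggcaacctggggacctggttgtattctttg
The table of promoters held 8 of the 10 genes, all but Adgre1 and Csf1r. GAGGAA was present on either strand in 5 of these 8, namely Cd68, Fcgr1, Mrc1, Ctss and Clec7a, and in 28.3% of all 27025 promoter stretches of this length. GAGGAAGT was present in 1 of the 8, Ctss, against 3.28% of all, and TTGCNNAA in 1 of the 8, Cd68, against 10.8% of all. Mrc1 held 3 copies of the core and Cd68 and Ctss 2 each. A match is a description of these letters and not a binding site.

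Among the surface receptors, Csf1r (probe set 10456071), through which colony-stimulating factor 1 keeps monocytes and macrophages alive, measured 11.20 on Selp-/- 3 and 10.36 on WT 3, against 9.53 and 9.35 on Selp-/- 1 and Selp-/- 2 and 9.28 and 9.60 on WT 1 and WT 2. Both arrays numbered 3 were above the other 4, and the difference was 1.34 (SE 0.21, 2.53-fold, limma adjusted p 0.00642). Adgre1 (probe set 10446282), which encodes the macrophage antigen F4/80, measured 11.49 on Selp-/- 3 and 11.95 on WT 3, against 7.93 and 8.36 on Selp-/- 1 and Selp-/- 2 and 8.13 and 8.22 on WT 1 and WT 2. It had the largest difference of the 10, 3.56 (SE 0.14, adjusted p 7.48e-05 by limma, 0.000388 with no filter). Its groups by number did not overlap. Its intensity was 3406 on Selp-/- 3 and 4661 on WT 3, against 362 to 434 on the arrays numbered 1 and 2, where it lay between the percentiles 18.1 and 27.8 of all probe sets.

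Mrc1 (probe set 10469358), the mannose receptor of tissue macrophages, measured 10.17 on Selp-/- 3 and 10.44 on WT 3, against 8.31 and 8.80 on Selp-/- 1 and Selp-/- 2 and 8.38 and 8.61 on WT 1 and WT 2. The numbers did not overlap, and the difference was 1.78 (SE 0.13, adjusted p 0.000367 by limma, 0.00139 with no filter). Clec7a (probe set 10548375), the receptor dectin-1 for fungal beta-glucans, measured 11.75 on Selp-/- 3 and 10.29 on WT 3, against 8.73 and 8.92 on Selp-/- 1 and Selp-/- 2 and 8.44 and 8.79 on WT 1 and WT 2. Both arrays numbered 3 were again above the rest, Selp-/- 3 by the wider margin. The difference was 2.30 (SE 0.26, limma adjusted p 0.00203, 0.00545 with no filter).

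Fcgr1 (probe set 10500335), the high-affinity receptor for immunoglobulin G, was the one gene of the 10 that did not pass the test. It measured 10.09 on Selp-/- 3 and 8.96 on WT 3, against 8.62 and 8.71 on Selp-/- 1 and Selp-/- 2 and 8.78 and 8.97 on WT 1 and WT 2. Selp-/- 3 alone was high, and WT 3 lay within the range of the arrays numbered 1 and 2. The difference of 0.76 had a 95% interval of 0.11 to 1.41 and an adjusted p of 0.0967 by limma, which became 0.0467 without WT 1. Without WT 3 the difference was 1.43, which rests on Selp-/- 3 alone. Ms4a6c (probe set 10461614), of the membrane-spanning 4-domain family, measured 12.11 on Selp-/- 3 and 11.39 on WT 3, against 10.83 and 10.81 on Selp-/- 1 and Selp-/- 2 and 10.55 and 11.00 on WT 1 and WT 2. Its numbers did not overlap, though WT 3 was little above WT 2, and the difference was 0.95 (SE 0.19, adjusted p 0.0142, and 0.61 with an adjusted p of 0.0944 without Selp-/- 3). Ms4a genes include close copies, whose signals an array may not separate.

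The lysosomal genes were all called higher on the arrays numbered 3. Lyz2 (probe set 10372648), which encodes the lysozyme of myeloid cells, measured 13.92 on Selp-/- 3 and 12.53 on WT 3, against 11.78 and 11.62 on Selp-/- 1 and Selp-/- 2 and 11.95 and 11.57 on WT 1 and WT 2. Selp-/- 3 was highest and WT 3 next, and the difference was 1.49 (SE 0.30, 2.81-fold, adjusted p 0.0152 by limma, 0.0561 without Selp-/- 2). Lyz1 is a near-identical copy, so the value of Lyz2 is uncertain where probes are shared, but Lyz1 itself measured 10.60 on Selp-/- 3 and 10.19 on WT 3, against 9.77 to 10.14 on the other arrays, and did not pass the test (adjusted p 0.138). Cd68 (probe set 10387536), a glycoprotein of endosomes and lysosomes, measured 13.17 on Selp-/- 3 and 12.52 on WT 3, against 10.30 and 10.46 on Selp-/- 1 and Selp-/- 2 and 10.58 and 10.50 on WT 1 and WT 2. The arrays numbered 1 and 2 lay within a narrow band, and the difference was 2.38 (SE 0.19, 5.22-fold, adjusted p 0.000596).

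Ctss (probe set 10494271), a cysteine protease that trims the invariant chain for antigen presentation, measured 12.86 on Selp-/- 3 and 11.56 on WT 3, against 10.80 and 10.60 on Selp-/- 1 and Selp-/- 2 and 9.81 and 10.63 on WT 1 and WT 2. The numbers did not overlap, WT 1 was low among the others, and the difference was 1.75 (SE 0.25, 3.36-fold, adjusted p 0.00526 by limma). Mpeg1 (probe set 10461721), a pore-forming protein of phagocytes that acts on engulfed bacteria, measured 12.31 on Selp-/- 3 and 10.68 on WT 3, against 10.11 and 10.74 on Selp-/- 1 and Selp-/- 2 and 9.93 and 10.52 on WT 1 and WT 2. WT 3 was below Selp-/- 2, so that the numbers overlapped. Its difference of 1.17 (SE 0.29) had an adjusted p of 0.0325, and of 0.0571 with no filter on low levels. It missed the threshold also without WT 2 (0.055), without Selp-/- 2 (0.0953) and without Selp-/- 3, where the difference was 0.46 (0.137).

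The arrays numbered 3 were wholly above the other 4 for 8 of the 10 genes, against 20.1% of tested probe sets. Within genotypes, Selp-/- 3 was above Selp-/- 1 and Selp-/- 2 for 10 of 10 (35.5% of tested probe sets), and WT 3 above WT 1 and WT 2 for 9 of 10 (37.3%). Number 2 against number 1 gave 0 of 10 called in either direction, where 0.00578% of probe sets were called higher and 0.0463% lower. At an unadjusted p under 0.05 the same comparison held 1 of the 10, Mrc1, and 7.96% of probe sets. Across the 6 arrays the 45 pairs of genes had Pearson correlations of 0.658, for Fcgr1 and Mrc1, to 0.993, for Adgre1 and Mrc1, with a median of 0.909. Those pairs share the same arrays, which fall into 2 separate clusters by number, so the values only describe the order of the arrays.

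The genotype comparison, which asks what the loss of P-selectin does in these cells, gave 0 of 10 genes called. Over 17289 probe sets 0% were called in either direction, with a lowest adjusted p of 1 by limma, and 0 of the 10 were among the 122 probe sets (0.706%) with an unadjusted p under 0.05. Selp-/- and WT arrays overlapped for all 10, where 2.24% of probe sets lay wholly higher and 1.97% wholly lower in Selp-/-. The spread between numbers sets the width of the intervals. Ctss averaged 11.42 ± 1.25 in Selp-/- and 10.67 ± 0.87 in WT (SD, n = 3 each), a difference of 0.75 with a 95% interval of -0.87 to 2.37. Adgre1 averaged 9.26 ± 1.94 in Selp-/- and 9.44 ± 2.18 in WT (SD, n = 3 each), a difference of -0.17 with an interval of -3.23 to 2.89. These intervals hold changes of more than 2-fold in either direction for Adgre1 and upwards for Ctss. The other differences, Selp-/- minus WT, were 0.68 for Mpeg1, 0.62 for Clec7a, 0.42 for Lyz2, 0.28 for Csf1r, 0.27 for Ms4a6c, 0.24 for Fcgr1, 0.11 for Cd68 and -0.05 for Mrc1. The median of the 10 was 0.28, beside 0.0054 over all tested probe sets.

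With the array number as a replicate block, the genotype comparison gave narrower errors and again 0 of 10 called, with a lowest adjusted p of 0.124 over all probe sets. An unadjusted p under 0.05 was reached by 3 of the 10 and by 3.64% of probe sets. They were Ctss, with a p of 0.0166 and a 95% interval of 0.18 to 1.32, Clec7a, with 0.0392, and Mpeg1, with 0.0447, and each had an adjusted p of 0.983 in that limma fit. Leaving out Selp-/- 3 turned the sign of the genotype difference for Csf1r, Lyz2, Cd68, Fcgr1, Ms4a6c and Clec7a, with Csf1r then at -0.31 and Clec7a at -0.35, and leaving out WT 3 turned it for Adgre1 (1.09) and Mrc1 (0.60). The signs of Adgre1 and Mrc1 also turned without Selp-/- 1 (0.49 and 0.34) and without Selp-/- 2 (0.28 and 0.096), and that of Cd68 without WT 1 (-0.20) and without WT 2 (-0.24).

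Within single numbers, where Selp-/- and WT have 1 array each and no test is possible, the genotypes differed most among the arrays numbered 3. There 8 of the 10 genes were above WT 3 on Selp-/- 3, against 50.1% of tested probe sets, and 5 were over 1 log2 unit higher, against 0.318%. The folds, Selp-/- 3 over WT 3, were 3.08 for Mpeg1, 2.75 for Clec7a, 2.63 for Lyz2, 2.46 for Ctss and 2.19 for Fcgr1, then 1.79 for Csf1r, 1.65 for Ms4a6c and 1.56 for Cd68. The fold of Fcgr1 is uncertain. Its WT 3 level of 8.96 lay within the range of the arrays numbered 1 and 2, where standing above background is not known. Mrc1 and Adgre1 went the other way, with folds of 0.828 and 0.726. In numbers 1 and 2 the genes split evenly, with 5 of 10 above WT in each (50.5% and 51.9% of probe sets), and 0 over 1 unit higher (0.145% and 0.312%). None of the 10 was over 1 unit lower in any number, as were 0.307%, 0.26% and 0.422% of probe sets in numbers 1, 2 and 3. Within numbers 1 and 2 the widest gap was that of Ctss in number 1, at 10.80 on Selp-/- 1 and 9.81 on WT 1. Mpeg1 and Clec7a were the 2 of 10 above WT in all 3 numbers, as were 12.6% of probe sets.

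**Figure D2:**
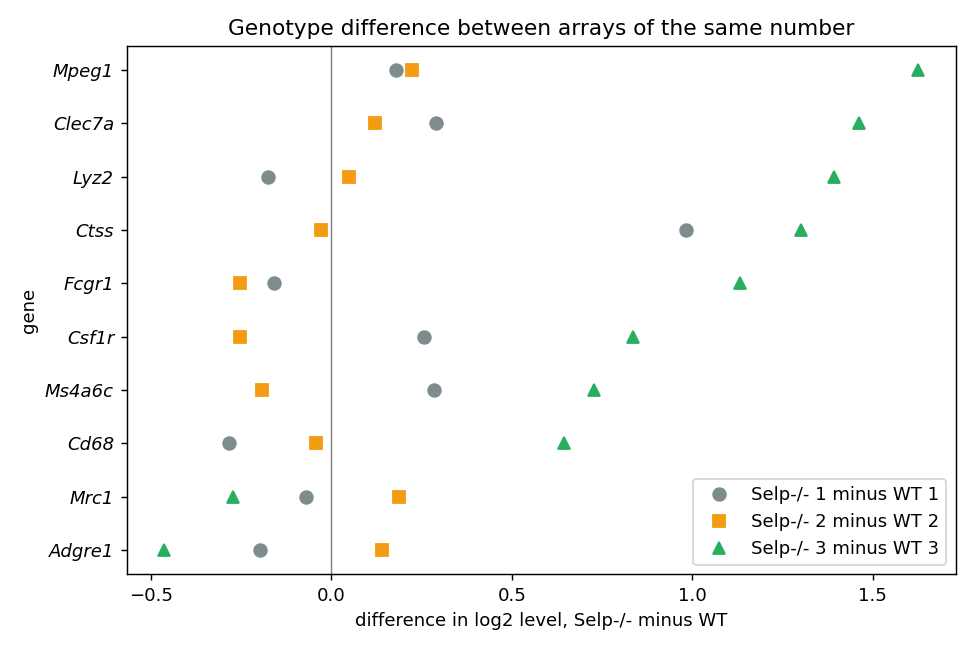
Selp-/- minus WT in log2 level within each array number for the 10 genes, with 1 array per genotype behind each point. In numbers 1 and 2 the points lie around 0 except for Ctss in number 1 (0.98), and in number 3 they run from 0.65 for Cd68 to 1.63 for Mpeg1 in 8 genes, with Adgre1 and Mrc1 below 0.

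The difference between these within-number values was tested as an interaction, with numbers 1 and 2 taken as replicates. Number 3 has 1 array per genotype, so the errors and p-values rest on the spread between numbers 1 and 2. They hold no spread within number 3, which was assumed to be the same. It gave 0 of 10 genes called, where 0.0116% of probe sets were called higher and 0.0405% lower. At an unadjusted p under 0.05 it held 6 of the 10, namely Csf1r, Lyz2, Cd68, Fcgr1, Mpeg1 and Clec7a, and 4.15% of probe sets. The lowest adjusted p was 0.25, for Fcgr1, whose genotype difference was 1.34 (SE 0.24) larger in number 3. Lyz2 had 1.46 (SE 0.28, adjusted p 0.299 by limma), Mpeg1 1.42 (SE 0.44, adjusted p 0.87) and Clec7a 1.26 (SE 0.29, adjusted p 0.439). Adgre1 and Mrc1 had values of -0.43 and -0.33. No gene of the 10 is thus shown to differ between genotypes in number 3 alone.

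**Figure D3:**
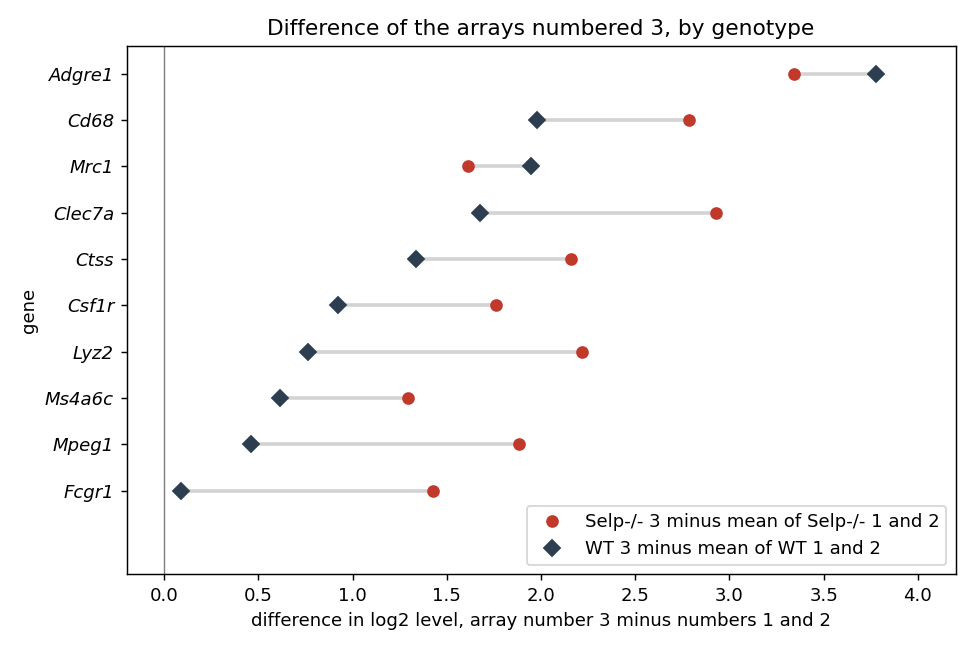
Number 3 minus the mean of numbers 1 and 2 in log2 level, in Selp-/- and in WT, for each of the 10 genes. The value is larger in Selp-/- for 8 genes, by most for Lyz2 (2.22 in Selp-/- and 0.76 in WT), and larger in WT for Adgre1 (3.34 in Selp-/- and 3.78 in WT) and Mrc1.

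The wider programme was described with 10 lists of related genes, 86 genes in all, of which 83 had a probe set. Because many of them are dim on the arrays numbered 1 and 2, their counts come from the fit with no filter, in which 5.13% of all probe sets were called higher and 6.23% lower on the arrays numbered 3, with a median of -0.0023. Of the 83 genes, 49 were called higher and 0 lower, with a median of 1.00. Selp-/- 3 was above WT 3 for 58 of the 83. In the genotype comparison 0 of the 66 that passed the filter were called. Adjusted p-values of named genes below are those of the filtered limma fit, as for the 10. Some, such as Ms4a6d, Ms4a4c, C3ar1, C5ar1, Chil3 and Clec4d, lay below 8.79 on every array numbered 1 or 2. They were thus tested only through the arrays numbered 3, and whether they stood above background on the others is not known.

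Among the ligands of CSF1R and the related receptors, 4 of 6 were called higher. Csf1, the main ligand of CSF1R, measured 10.57 on Selp-/- 3 and 11.93 on WT 3, against 8.94 to 9.08 on the other arrays (difference 2.21, SE 0.27, adjusted p 0.00255). The ligand was thus higher on WT 3, while the receptor Csf1r was higher on Selp-/- 3. Il34, the other ligand, had a difference of 0.20 (adjusted p 0.263). Csf2rb, which encodes the shared beta chain of the receptors for interleukin 3, interleukin 5 and GM-CSF, had 2.82. The related gene Csf2rb2 had 3.41, and being close copies the genes are uncertain as separate values.

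Of 9 transcription factors of the lineage, 4 were called higher, with a list median of 0.33. Spi1 itself, which encodes PU.1, had a difference of 0.60 (adjusted p 0.0184), Klf4, which monocytes need, 0.58, and Cebpa and Cebpb, of the C/EBP family, 1.11 and 1.12. Leaving out 1 array numbered 3 took the count to 2, since Spi1 and Klf4 then missed the threshold, with adjusted p-values of 0.11 and 0.0858 without WT 3 and of 0.0944 and 0.055 without Selp-/- 3. Irf8, needed for monocyte and dendritic cell progenitors, had -0.26 and did not pass (adjusted p 0.167). The factors' differences were thus smaller in size than those of most of the 10 genes.

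Fc receptors and their signalling subunits had 7 of 8 called higher, with a list median of 2.15. Fcer1g, the signalling chain that FCGR1 needs, had 2.60 (adjusted p 9.4e-05), the inhibitory receptor Fcgr2b 2.64 and the low-affinity receptor Fcgr3 1.88, beside the 0.76 of Fcgr1. Fcer1g and Fcgr2b were a little lower on Selp-/- 3, at 13.01 and 12.35, than on WT 3, at 13.18 and 12.80. The list holds Fcer1a and Ms4a2, genes of basophils and mast cells, and all 8 markers of those cells were called higher, with Mcpt8, a basophil protease, at 4.51. Fcer1g and Fcgr3 are known in basophils and mast cells too, and the part of such cells in these values was not tested.

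C-type lectin and scavenger receptors, listed with their signalling adaptor Card9, had 7 of 10 called higher, Card9 included (1.03). Among them were Clec4d and Clec4e, receptors for mycobacterial glycolipids, at 2.04 and 1.43. Of 9 other Ms4a genes, 6 were called higher. Ms4a6d measured 12.22 on Selp-/- 3 and 11.40 on WT 3, against 7.78 to 8.17 on the other arrays. Its difference was 3.91 (limma adjusted p 0.000104, and 0.000514 with no filter), and that of Ms4a4c 3.66. The difference of Ms4a6c, from levels of 10.55 to 11.00 on the arrays numbered 1 and 2, was 0.95. Of 12 cathepsins and other lysosomal proteins, 11 were called higher, all but Lyz1, with Ctsd at 1.84 and Ctsb at 1.45 beside the 1.75 of Ctss.

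Complement genes had 3 of 6 called higher. The receptors C3ar1 and C5ar1 had differences of 3.84 and 2.01, and properdin (Cfp) had 1.92, and these were the 3 called. The C1q chains, which macrophages make, did not pass, with C1qb at -0.21 and C1qc at -0.44. Classical monocyte genes had 5 of 7 called higher, with Chil3, a chitinase-like protein, at 4.72 and Ccr2, the chemokine receptor by which monocytes leave the marrow, at 1.79. Chil3 and Ccr2 were lower on Selp-/- 3, at 11.42 and 10.20, than on WT 3, at 13.12 and 10.80, while 4 of the 7, F13a1, Fn1, Cd14 and Vcan, were higher on Selp-/- 3. Non-classical monocyte genes had 0 of 7 called with no filter, and Cx3cr1, the fractalkine receptor, had 0.16 (adjusted p 0.441). Ace was called with the filter alone (0.86, adjusted p 0.0316).

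Genes of tissue-resident and erythroblastic island macrophages had 2 of 10 called higher with no filter, namely Mertk, a receptor for dying cells, at 1.10, and Hmox1, which degrades haem, at 1.57. Vcam1 and Timd4 did not pass, with values of -0.31 and -0.02. Siglec1, the sialic acid receptor of marrow macrophages, measured 10.64 on Selp-/- 3 and 9.23 on WT 3, against 9.14 and 9.42 on Selp-/- 1 and Selp-/- 2 and 8.996 and 9.20 on WT 1 and WT 2. As with Fcgr1, Selp-/- 3 alone was high, and the difference by number did not pass (adjusted p 0.0816). Axl, a receptor of the same family as Mertk, measured 11.30 on Selp-/- 3 and 9.87 on WT 3, against 9.42 to 9.86 on the other arrays.

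**Figure D4:**
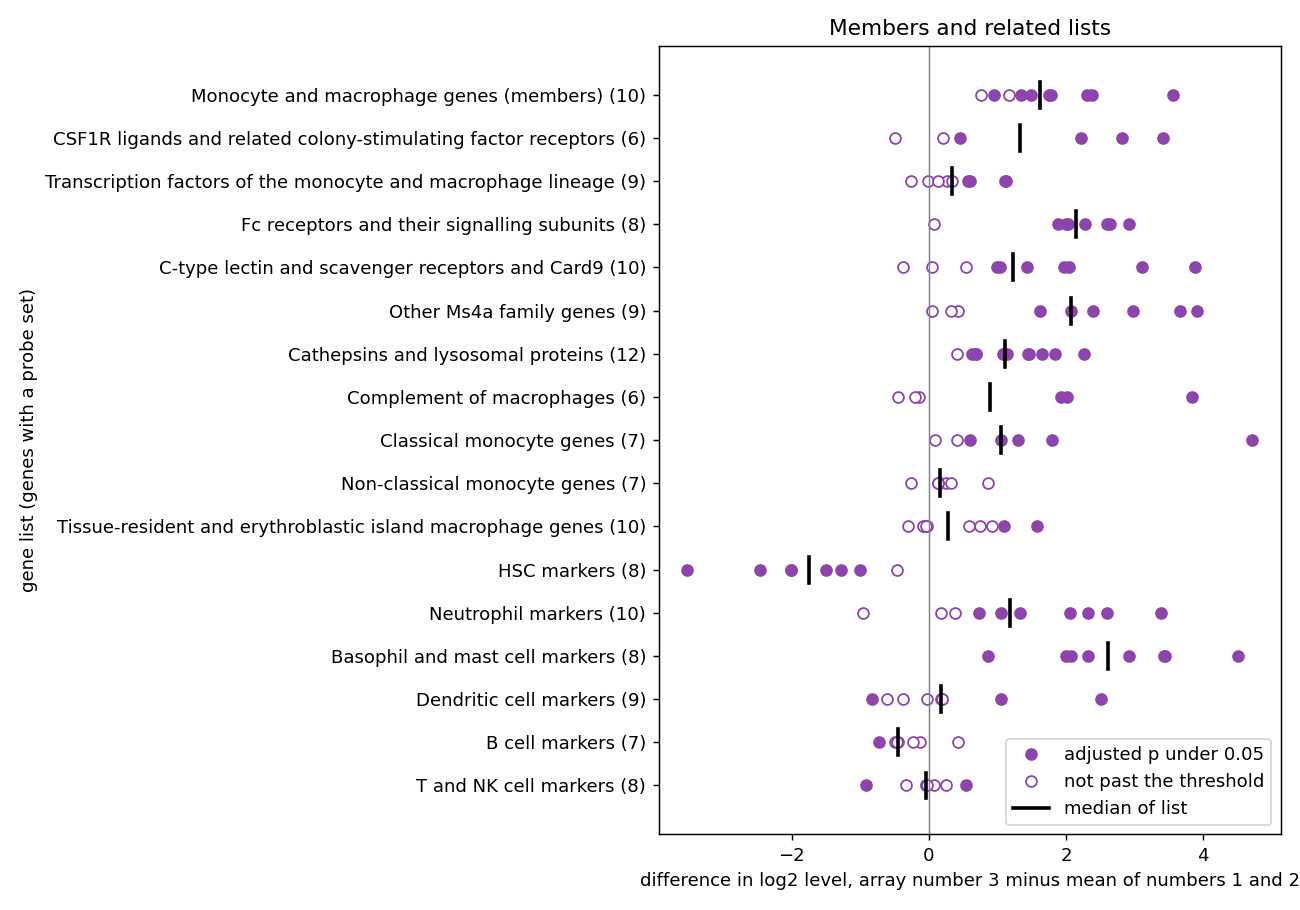
Number 3 minus the mean of numbers 1 and 2 in log2 level for each gene with a probe set, in the fit with no filter, by list. Each point is a gene, filled where its adjusted p is under 0.05, and the bar is the list's median, which is 1.62 for the 10 genes, 2.62 for basophil and mast cell markers and -1.75 for HSC markers.

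Markers of other cells moved on the same arrays. Of 8 genes listed as HSC markers, 7 were called lower, namely Hlf, Mecom, Procr, Meis1, Kit, Cd34 and Flt3. Slamf1 was not called, with a difference of -0.46. Hlf, a transcription factor of HSC, measured 8.81 on Selp-/- 3 and 8.88 on WT 3, against 12.13 to 12.53 on the other arrays. Neutrophil markers had 7 of 10 called higher and differed among the arrays numbered 1 and 2 as well, with list means of 10.92 and 9.56 on Selp-/- 1 and Selp-/- 2 and 11.23 and 9.47 on WT 1 and WT 2. Dendritic cell markers had 2 of 9 called higher and 1 lower, B cell markers 0 of 7 higher and 1 lower, and T and NK cell markers 1 of 8 in each direction. These counts are from the fit with no filter, where 5.13% of all probe sets were called higher and 6.23% lower. Between the arrays numbered 3 the lists differed in sign. Over the genes with a probe set, the median of Selp-/- 3 minus WT 3 was 0.98 for the 10 genes, 0.65 for resident macrophage genes and 0.39 for classical monocyte genes, against -0.48 for basophil and mast cell markers, -0.33 for neutrophil markers and 0.00016 over all probe sets. It was also below 0 for the list of CSF1R ligands and related receptors (-0.19), Fc receptors (-0.14), HSC markers (-0.11), dendritic cell markers (-0.05) and B cell markers (-0.26). The other lists were above 0, and each median rests on 1 array per genotype. With the filter the median of the classical monocyte genes, 5 of the 7, was -0.56. Several of the 10 are also known in neutrophils, as Lyz2 is, and the part of each cell type in the values was not tested.

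The genes whose levels followed the mean profile of the 10 most closely were found by the root mean square distance between centred levels on the 6 arrays, among 12445 other genes. The nearest was Sgk1, a serum- and glucocorticoid-induced kinase, at 0.102, then the interferon-induced genes Irf7 at 0.116 and Usp18 at 0.168, with the lectin receptor Clec4e at 0.152. Pparg, a lipid-sensing nuclear receptor, followed at 0.170, with Gpr137b-ps, F7, which encodes coagulation factor VII, and Plin2, which coats lipid droplets, at up to 0.184. Among the 10 themselves the distance from their mean was smallest for Csf1r, at 0.22, and largest for Adgre1, at 0.94. Irf7 measured 12.24 on Selp-/- 3 and 11.22 on WT 3, against 9.64 to 10.02 on the other arrays, with Selp-/- 3 highest and WT 3 next, as for Csf1r, Lyz2, Cd68 and Clec7a.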

How the data were processed

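RNA of HSC was amplified with a NuGEN kit and hybridized to Affymetrix whole-transcript mouse arrays, per the labels' protocols. The deposited table holds linear intensities of probe sets, and MAS5 is the tool listed, per the submitters' processing notes (version and scale factor not given in the sources used here). All were multiples of 0.5 with unequal medians, so no scaling was visible, and the planned log2(value + 16) with no normalization became an alternative. Intensities were corrected with normexp (offset 50), turned into log2 values and quantile normalized. Probe sets under the 40th percentile of the mean level, 8.79, were left out, which kept 17289. Each was fitted with lmFit and eBayes with a trend (limma 3.58.1, R 4.3.3), two-sided, with Benjamini-Hochberg adjustment at 0.05. The scripts were checked on simulated data. The number of arrays limits the precision.

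Arrays of the same number deviated together from their genotype means, with correlations of 0.43, 0.53 and 0.81 for numbers 1, 2 and 3, each over 0.1, so that a fit with the number as a block was run beside the main fit, which has none. Arrays numbered 1 and 2 also correlated across numbers, with 0.51 for Selp-/- 1 and WT 2 and 0.37 for Selp-/- 2 and WT 1. The 10 genes, the lists, the comparison of number 3 with the others and the rule for named genes were chosen with earlier results of these data known. The rule takes the 10 genes, the first 3 tested genes of each related list with any called gene of lists with at most 5 calls, the first 2 of each marker list, and the 8 genes of nearest profile. Other named genes, such as Lyz1 and Xist, were chosen after their values were seen. Gene names came from the platform annotation, which gave 1 symbol for 21780 probe sets, several for 1605 and none for 5430; 21689 of the single symbols were found in RefSeq. The alternatives were no normalization, median centring, no background correction, offset 16, no filter, the 60th percentile, no trend, other model terms and leaving out each array.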

Additional observations from a re-analysis of the deposited data

How the results depend on the processing

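The alternatives run left each of the 10 genes uncalled in the genotype comparison and in the interaction, where Adgre1, Mrc1 and Fcgr1 were not tested at the 60th percentile filter. With the replicate block 0 probe sets were called by genotype (lowest adjusted p 0.124), so it changed no call. With the arrays numbered 1 and 2 alone 4 were called lower by genotype, and Lyz2, Cd68, Fcgr1 and Mrc1 had differences of -0.063, -0.16, -0.21 and 0.059. Unnormalized values gave Mrc1 0.026. Leaving out each array moved the genotype difference of Adgre1 from -1.29 to 1.09, Csf1r -0.31 to 0.62, Lyz2 -0.32 to 0.83, Cd68 -0.82 to 0.77, Fcgr1 -0.24 to 0.50, Mrc1 -0.59 to 0.60, Ms4a6c -0.16 to 0.49 and Clec7a -0.35 to 1.18, lowest in each without Selp-/- 3. Unnormalized values moved the median of all probe sets by 0.11 (genotype), 0.20 (number 3), -0.22 (number 2 against 1) and -0.24 (interaction), and the cause of the changes below was not tested.

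In number 3 against the others, 7 to 10 of the 10 genes were called higher. Mpeg1 lost its call with no filter (0.0571), no genotype term (0.0557), without WT 2 (0.055), without Selp-/- 2 (0.0953) and without Selp-/- 3 (0.137), Lyz2 without Selp-/- 2 (0.0561) and Ms4a6c without Selp-/- 3 (0.0944). Fcgr1 gained one unnormalized and without WT 1 (0.0467), and also without WT 3, where the difference of 1.43 rests on Selp-/- 3 alone. Unnormalized, 3908 probe sets were called higher and 769 lower. Leaving out an array gave 730 (without WT 3) to 1367 higher and 651 (without WT 3) to 1806 lower; a lone array numbered 3 was then assumed to vary like the others. Unnormalized, Irf8 had 0.0037, C1qb 0.047, Timd4 0.19 and Cd3e 0.17. Leaving out an array gave Ms4a6b -0.22 to 0.88, C1qb -0.58 to 0.16, F13a1 -0.17 to 0.35, Treml4 -0.081 to 0.59, Vcam1 -0.79 to 0.18 and Cd3e -0.13 to 0.045.

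Number 2 against 1 gave, higher and lower, 19 and 1267 unnormalized (1 of the 10 genes lower), 2 and 26 with median centring, 2 and 14 with offset 16, 0 and 3 with no filter, 2 and 13 at the 60th percentile, 0 and 5 with no trend, 25 lower with no genotype term, and 1 to 17 and 0 to 57 leaving out an array. The interaction gave 20 and 37 unnormalized, 4 higher with median centring or no background correction, 4 lower with offset 16, 0 and 0 with no filter, 1 higher at the 60th percentile, 1 and 4 with no trend, and 0 to 2 and 0 to 6 leaving out an array. It could not be estimated without WT 3 or without Selp-/- 3 and was not run there.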

Other observations

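Several scavenger and Fc receptor genes lay below the filter on low levels. In the limma fit with no filter, Cd36, a receptor for oxidized lipids, had a difference of 3.88 between number 3 and the others (adjusted p 0.00138), and it measured 12.08 on Selp-/- 3 and 10.57 on WT 3, against 7.36 to 7.66 on the other arrays. Msr1, a macrophage scavenger receptor, had 1.97 (adjusted p 0.0266) and measured 9.91 on Selp-/- 3 and 8.20 on WT 3. Ms4a7 measured 10.36 on Selp-/- 3 and 8.58 on WT 3, and Fcgr4, an activating receptor for immunoglobulin G, 9.97 on Selp-/- 3 and 8.99 on WT 3. These genes were chosen after their values were seen, and the gap between Selp-/- 3 and WT 3 rests on 1 array each.

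Ccr9, a chemokine receptor of plasmacytoid dendritic cells, was 1.71 higher on Selp-/- 3, at 10.265, than on WT 3, at 8.55. It measured 9.12 and 9.29 on Selp-/- 1 and Selp-/- 2 and 9.78 and 9.54 on WT 1 and WT 2. Selp-/- 3 was thus above the other arrays of its genotype, and WT 3 was below those of its own. Of the genes in the related and marker lists, Ccr9 was the only one called in the interaction. The number 3 side of that test is 1 array per genotype, and 0 probe sets were called higher with no filter, without WT 1, without WT 2 or without Selp-/- 2.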
